A study of Mus musculus with 8 samples.

Results

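The genes described here encode the chemokines that draw monocytes from blood into tissue, their receptors, and a surface marker of inflammatory monocytes: Ccl2, Ccl7, Ccl8, Ccl12, Ccr2, Cx3cl1, Cx3cr1 and Ly6c2. The members were the non-control probes of the microarray that carry one of these 8 gene names, which gave 10 probes out of 56567 mouse probes kept. All 8 genes were represented, and 9 of the 10 probes were bright enough to be tested. RNA came from whole subcutaneous tumors of CT26, a mouse colorectal cancer cell line, grown from 500000 implanted cells. Mice received vehicle, TP-16 (an antagonist of the prostaglandin E2 receptor EP4, called BY001 in the sample labels) at 75 mg/kg by mouth each day, anti-PD-1 antibody at 50 µg per mouse in 2 intraperitoneal doses per week, or the combination, for 2 weeks. Each group had 2 arrays, 8 in all, and the sources do not state whether an array held 1 tumor or a pool, so p-values measure the spread between these samples only. Such tumors hold 1 cell line and the host cells that entered them, and RNA of all these cells was measured together.

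CCL2, CCL7, CCL8 and CCL12 are small secreted chemokines of one subfamily, and CCL2, CCL7 and CCL12 are ligands of CCR2, the receptor through which classical monocytes leave the bone marrow and enter inflamed tissue. Mouse CCL8 acts mainly through another receptor, CCR8. CX3CL1, or fractalkine, is made as a membrane-bound chemokine, and its receptor CX3CR1 is high on non-classical monocytes and on several kinds of tissue macrophage. Ly6C, the protein of Ly6c1 and Ly6c2, is the marker by which mouse classical monocytes are sorted, and it is also carried by activated T cells and some endothelium and is inducible by interferon. In tumors, the recruited monocytes can become macrophages.

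Levels below are log2 of the processed signal minus log2 of the array's 75th percentile, so that 0 is the 75th percentile of the array. Levels of single genes were compared with the same probe on other arrays. Gaps between genes on the same array, marker sums and the word brightest bring different probes together. They do not compare RNA amounts between genes, and the sums are led by the brightest probes. A change was called when it reached a fold of 2 with an adjusted p of at most 0.05, where p came from 1 limma fit of all 8 arrays adjusted over 31912 tested probes. The looser threshold named in the study's methods, a fold of 2 with an unadjusted p of at most 0.05, is given beside it. All arrays lay on 1 slide, with vehicle and TP-16 in its row 1 and anti-PD-1 and the combination in row 2, and TP-16 and the combination in columns 3 and 4, so that row and antibody, and column and TP-16, cannot be told apart. The 75th percentile of signal ran from 371.1 to 378.1 in vehicle, 530.2 to 550.8 in TP-16, 398 to 414.9 in anti-PD-1 and 607.1 to 733.6 in the combination, and between 51.4% and 59.7% of probes were well above background. With this scaling the median change of all tested probes in the combination was -0.20, against -0.01 after quantile normalization. The calls over all probes in the combination were 1620 higher and 2384 lower, against 2312 higher of 3363 after quantile normalization.

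In the combination tumors Ly6c2 and Ccl8 rose, Ccl12 fell, and the other 5 members did not pass the adjusted test. Ly6c2 was 4.31-fold higher and Ccl8 2.50-fold higher than vehicle, and Ccl12 was 2.92-fold lower. That is 3 of 8 genes where 12.5% of all tested probes were called, with 2 genes higher where 5.08% of probes were called higher and 1 lower where 7.47% were called lower. Vehicle replicate 1 and the combination arrays decided these calls: 1 gene (Ly6c2) was called without vehicle replicate 1, and 0 without either combination array, while the 3 directions did not change. Over all probes 14.1% were called without vehicle replicate 1, 11.5% without combination replicate 1 and 0% without combination replicate 2. Without any 1 of the TP-16 or anti-PD-1 arrays, Ly6c2 had an adjusted p between 0.055 and 0.059, and with no filter on dim probes it was 0.053. Ccl12 stayed lower and Ly6c2 higher than vehicle under every scaling tried, whereas Ccl8 turned to -0.16 when arrays were scaled to 4 general leukocyte genes.

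At the looser threshold the combination gave the same 3 of 8 genes, with 15.3% of all probes past it, where p is again limma's. Anti-PD-1 alone gave 4 of 8 (Ccl8 and Ly6c2 higher, Ccl12 and Cx3cr1 lower), with 3.83% of all probes past it, and TP-16 alone gave 1 of 8 (Ly6c2, higher), with 6.18%. The TP-16 count was 2 without vehicle replicate 2 (Ccl8 and Ly6c2) and 0 without any other single array, and the anti-PD-1 count was 2 without vehicle replicate 1 or anti-PD-1 replicate 2. With p from the methods' t-test in place of limma, 1 member passed in the combination (Ccl12) and 0 with either single agent. The shares of all probes at the looser threshold are those of the main fit and are not given for these alternatives. After adjustment 0 members were called for TP-16, where 0.0533% of probes were, and 0 for anti-PD-1, where 0.0721% were. The limma fit gave an unadjusted p under 0.05 at any fold for 3 members with TP-16, 5 with anti-PD-1 and 6 with the combination, where 25.9%, 14.5% and 46.2% of all tested probes had one. The 3 comparisons share the 2 vehicle arrays and are therefore not independent of each other. The arrays of the 2 groups did not overlap for 4 of 8 members with TP-16, against 55.3% of all probes, for 5 with anti-PD-1, against 48.9%, and for 7 with the combination, against 70.7%. The members' median log2 change was 0.38 with TP-16, 0.39 with anti-PD-1 and 0.57 with the combination, where the medians over all tested probes were -0.12, -0.10 and -0.20.

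**Figure D1:**
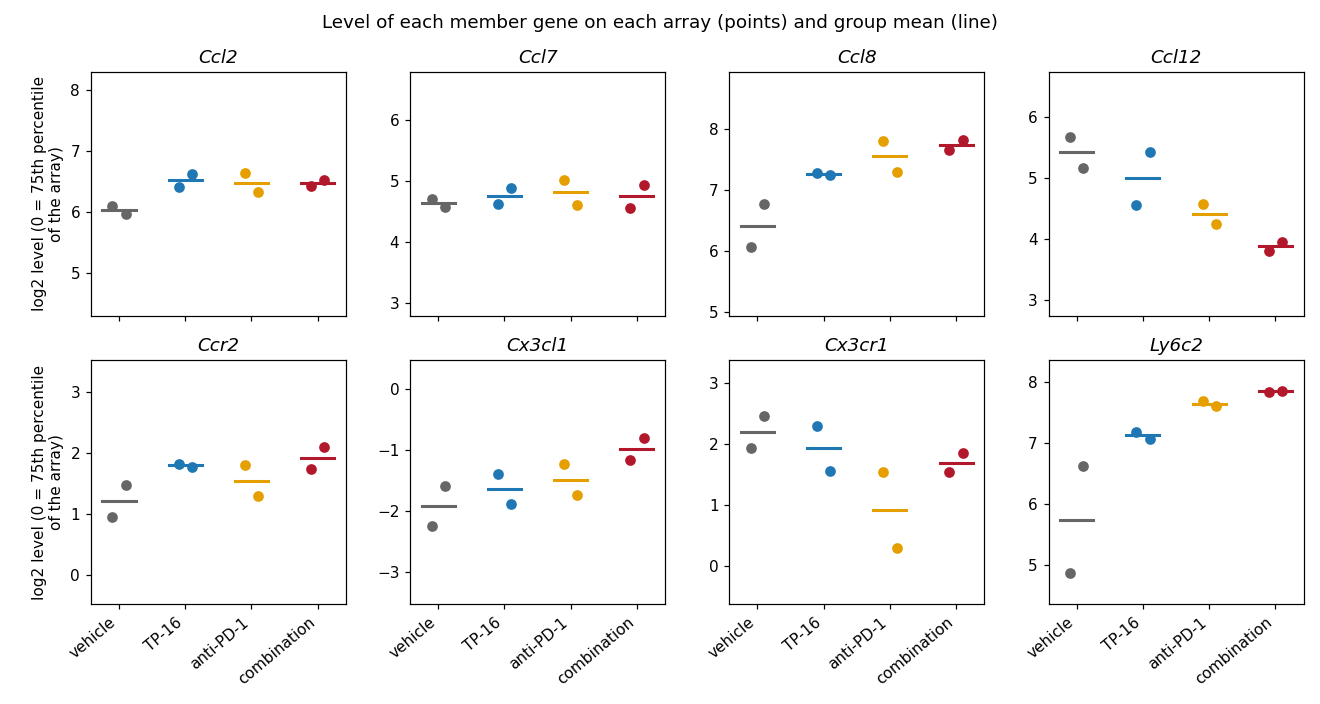
Level of each member gene on each of the 8 arrays (points) with the group mean (line), as log2 of signal relative to the array's 75th percentile. Each panel spans the same number of log2 units around its own gene, so slopes can be compared between panels and heights cannot. Ly6c2 and Ccl8 lie above both vehicle arrays in all 3 treated groups, and Ccl12 lies below them in anti-PD-1 and the combination; scaled to leukocyte genes instead, Ccl8 in the combination is at -0.16 against vehicle.

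Ccl2, Ccl7, Ccl12 and Ccl8 are neighbours on chromosome 11. Their probes lie within 79.5 kb (mm9, plus strand): Ccl2 at chr11:81850650-81850709, Ccl7 at chr11:81860656-81860715, Ccl12 at chr11:81916710-81916769 and Ccl8 at chr11:81930108-81930167. In the RefSeq table Ccl11 stands between Ccl7 and Ccl12, and Ccl12 and Ccl8 are next to each other, their probes 13.4 kb apart. Because these adjacent genes moved in opposite directions in the combination (with the leukocyte scaling Ccl8 was at -0.16), the 250 bases before their starts are shown, from RefSeq on GRCm38.p6, both on the plus strand, with TATAAA in capitals.
Ccl8 promoter, chr11:82114935-82115184: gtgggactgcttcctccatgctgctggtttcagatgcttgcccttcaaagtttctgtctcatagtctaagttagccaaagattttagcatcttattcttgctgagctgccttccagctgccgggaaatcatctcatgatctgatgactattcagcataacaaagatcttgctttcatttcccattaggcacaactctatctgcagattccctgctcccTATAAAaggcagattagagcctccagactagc
Ccl12 promoter, chr11:82101595-82101844: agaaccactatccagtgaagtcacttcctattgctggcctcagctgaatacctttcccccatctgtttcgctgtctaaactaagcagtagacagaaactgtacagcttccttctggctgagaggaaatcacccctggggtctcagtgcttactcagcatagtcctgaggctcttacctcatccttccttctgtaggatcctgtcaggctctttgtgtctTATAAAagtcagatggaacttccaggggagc
Aligned end to end, these promoters had the same base in 57.5% of 266 alignment columns, where the other pairs of members' promoters had between 42% and 50.4%. No promoter was listed for Ccl2 or Ccl7, the other ligands here, so neither the pairs nor the motif search covers them. TATAAA began 32 bases before the start of Ccl8 and 31 before that of Ccl12, and 12.4% of 32851 RefSeq promoters of this length hold it. Apart from TATAAA, which Cx3cl1 also holds, and GAAANNGAA (ISRE core, in 7.13% of promoters), which Ccr2 holds on the minus strand, the 7 promoters listed for 6 of the 8 members held no match on either strand to TGANTCA (AP-1, 6.75%), TGACG (CRE half-site, 17.8%), TTCNNNGAA (GAS element, 7.02%) or the NF-kappaB consensus (7.25%). TGANTCA and TGACG can share letters. These are matches of letters in a window and not measured sites.

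Ccl2, the main CCR2 ligand, stood at 6.10 and 5.96 on the vehicle arrays. It stood at 6.41 and 6.62 in TP-16, 6.63 and 6.32 in anti-PD-1, and 6.41 and 6.52 in the combination. Every treated array was above both vehicle arrays, and the 3 treated groups overlapped each other. The differences from vehicle were 0.48 ± 0.15 (SE) with TP-16, 0.44 ± 0.15 with anti-PD-1 and 0.43 ± 0.15 with the combination, and none reached a fold of 2 (limma adjusted p = 0.13, 0.31 and 0.074). Adding the antibody to TP-16 gave a further -0.05 with a 95% interval of -0.42 to 0.32. Quantile normalization put Ccl2 in the combination 0.94 above vehicle (limma adjusted p = 0.019), still under a fold of 2. Scaling to leukocyte genes put it at -1.05 (limma adjusted p = 0.019), where the median of all tested probes was -1.68 and 85.3% were called.

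Ccl7, a second CCR2 ligand, was at 4.71 and 4.57 in vehicle and between 4.56 and 5.03 on the 6 treated arrays. Treated and vehicle arrays overlapped in every group. Its difference from vehicle was 0.11 in the combination, with a 95% interval of -0.41 to 0.63, so a change as large as 2-fold lay outside the interval at this scaling. The gap between Ccl2 and Ccl7 on the same array, which a constant factor per array cannot alter, was wider than the vehicle mean by 0.37 log2 units in TP-16, 0.27 in anti-PD-1 and 0.32 in the combination, the last being 0.55 after quantile normalization.

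Ccl12, the third CCR2 ligand, was at 5.67 and 5.16 in vehicle. It was at 4.55 and 5.42 in TP-16, 4.57 and 4.25 in anti-PD-1, and 3.80 and 3.94 in the combination. TP-16 overlapped vehicle, anti-PD-1 and the combination lay wholly below it, and the combination lay below every other array. The change was -0.43 ± 0.32 (SE) with TP-16 (limma adjusted p = 0.43), -1.01 ± 0.32 with anti-PD-1 (0.30) and -1.55 ± 0.32 with the combination (0.020). Compared with TP-16 alone, the combination was lower by a log2 difference of -1.12 (unadjusted p = 0.014, adjusted p = 0.15). The group mean was highest in vehicle, then in TP-16, then in anti-PD-1, and lowest in the combination; vehicle and TP-16 overlapped, as did TP-16 and anti-PD-1, while the combination and anti-PD-1 differed by -0.54 with an interval of -1.34 to 0.26. Without vehicle replicate 1 the combination change was -1.29 (adjusted p = 0.062).

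Ccl8 was at 6.06 and 6.77 in vehicle. It was at 7.28 and 7.24 in TP-16, 7.81 and 7.29 in anti-PD-1, and 7.66 and 7.81 in the combination. All 6 treated arrays were above both vehicle arrays. The change was 0.84 ± 0.28 (SE) with TP-16 (limma adjusted p = 0.14), 1.14 ± 0.28 with anti-PD-1 (0.25) and 1.32 ± 0.28 with the combination (0.020). The combination did not differ from anti-PD-1 beyond the spread (0.18, interval -0.50 to 0.86). Without vehicle replicate 1 the combination change was 0.96 (adjusted p = 0.043), under a fold of 2.

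The gap between Ccl8 and Ccl12 on the same array cannot be altered by a constant factor per array. Relative to the vehicle mean it was -0.61 and 0.61 on the vehicle arrays, 1.72 and 0.83 in TP-16, 2.24 and 2.05 in anti-PD-1, and 2.86 and 2.87 in the combination. Every treated array exceeded both vehicle arrays, and both anti-PD-1 groups exceeded both others. After quantile normalization the combination arrays were at 3.16 and 3.41. This pair was chosen after its values were seen, so the gap is given with no test. The longest run of bases that the Ccl8 and Ccl12 probes share is 13 of 60, and no other pair among the 4 ligands shares more than 6. Ccl11, the eotaxin gene that lies between Ccl7 and Ccl12 and whose product draws eosinophils through CCR3, rose by 1.65 ± 0.34 (SE) in the combination (limma adjusted p = 0.019). The cluster thus held genes that rose, a gene that fell and genes that did not pass the test, on the same arrays, with Ccl8 at -0.16 under the leukocyte scaling.

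**Figure D2:**
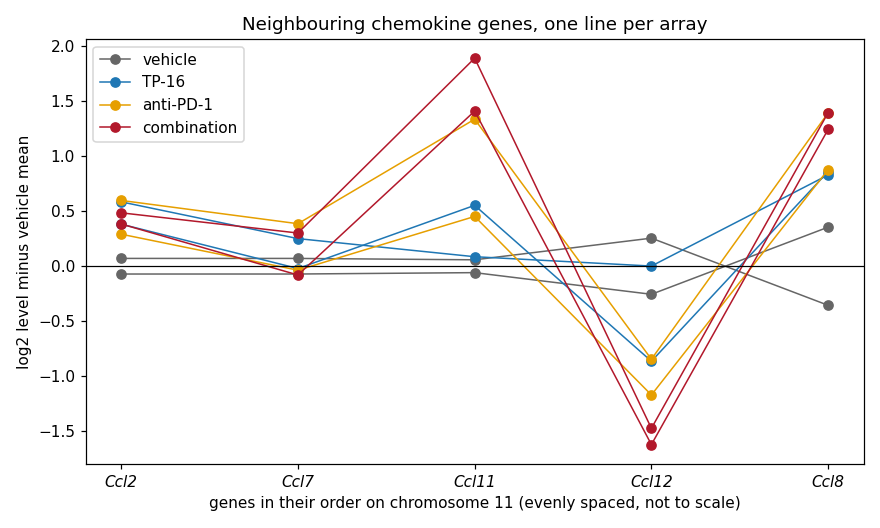
Log2 level minus the vehicle mean for 5 chemokine genes placed in their order on chromosome 11 (evenly spaced), with 1 line per array coloured by group. The combination lines climb at Ccl11 and Ccl8 and drop between them at Ccl12; with arrays scaled to leukocyte genes Ccl8 is no longer above vehicle in the combination (-0.16) and Ccl12 is further below (-3.03).

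Ccr2 was at 0.95 and 1.47 in vehicle. It was at 1.82 and 1.76 in TP-16, 1.80 and 1.29 in anti-PD-1, and 1.73 and 2.10 in the combination. TP-16 and the combination lay above both vehicle arrays and anti-PD-1 overlapped them. The difference was 0.59 ± 0.26 (SE) with TP-16 (limma adjusted p = 0.22), 0.33 ± 0.26 with anti-PD-1 (0.55) and 0.71 ± 0.26 with the combination (0.083), none reaching a fold of 2. Scaled to leukocyte genes, Ccr2 in the combination was at -0.77 against vehicle (limma adjusted p = 0.061), where the median of all tested probes was -1.68. In RNA of a whole tumor, fewer cells of a type and less RNA per cell cannot be told apart.

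Cx3cl1 had a brighter probe in the RefSeq transcript (mm9 chr8:97306185-97306244) and a dim one. The brighter probe was at -2.25 and -1.59 in vehicle, -1.39 and -1.88 in TP-16, -1.23 and -1.74 in anti-PD-1, and -1.15 and -0.79 in the combination. Only the combination lay above both vehicle arrays, and it was also above every other array. Its difference from vehicle was 0.95 ± 0.31 (SE), just under a fold of 2 (limma adjusted p = 0.066). Quantile normalization gave 1.04 (limma adjusted p = 0.049), which passes. Scaling to leukocyte genes gave -0.53 (limma adjusted p = 0.19), where the median of all tested probes was -1.68. The dim probe was well above background on 2 arrays, 1 of TP-16 and 1 of anti-PD-1, and was not tested.

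Cx3cr1, the fractalkine receptor, had 2 probes in 1 transcript. The brighter one was at 1.94 and 2.47 in vehicle, 2.31 and 1.57 in TP-16, 1.55 and 0.30 in anti-PD-1, and 1.55 and 1.86 in the combination. Both anti-PD-1 arrays and both combination arrays were below vehicle. The anti-PD-1 arrays differed from each other by more than the 2 arrays of any other group. The change with anti-PD-1 was -1.28 ± 0.47 (SE; unadjusted p = 0.036, limma adjusted p = 0.32) and with the combination -0.50 ± 0.47. The other probe was at -0.45 and -0.21 in vehicle, 0.23 and -0.56 in TP-16, -1.09 and -1.80 in anti-PD-1, and -0.46 and -0.34 in the combination. It gave -1.11 ± 0.33 with anti-PD-1 (unadjusted p = 0.016, adjusted p = 0.28) and -0.07 ± 0.33 with the combination. Combination minus anti-PD-1 was 0.78 ± 0.47 for the brighter probe and 1.05 ± 0.33 for the other (adjusted p = 0.34 and 0.13). The probes thus had the same sign with anti-PD-1 and neither passed after adjustment.

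Ly6c2 was at 4.85 and 6.62 in vehicle. It was at 7.18 and 7.06 in TP-16, 7.68 and 7.60 in anti-PD-1, and 7.83 and 7.85 in the combination. All treated arrays were above both vehicle arrays, and the treated groups did not overlap each other. The vehicle arrays differed from each other by more than any treated group differed from another. The change was 1.38 ± 0.53 (SE) with TP-16 (limma adjusted p = 0.18), 1.90 ± 0.53 with anti-PD-1 (0.27) and 2.11 ± 0.53 with the combination (0.031). Without vehicle replicate 1 the combination change was 1.22 (adjusted p = 0.016) and without vehicle replicate 2 it was 2.99 (0.0059). Without vehicle replicate 2, TP-16 gave 2.27 (0.015) and anti-PD-1 2.79 (0.010), both past the threshold. Scaled to leukocyte genes the combination was 0.63 above vehicle (adjusted p = 0.16).

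The Ly6c2 probe (mm9 chr15:74938637-74938695, minus strand) shares an unbroken run of 48 of its 60 bases with a probe named for the paralog Ly6c1, so the 2 genes cannot be told apart by it. That Ly6c1 probe changed by 1.35 with TP-16, 1.85 with anti-PD-1 and 2.00 with the combination (limma adjusted p = 0.034). A second Ly6c1 probe, whose longest shared run with the Ly6c2 probe is 5 bases, was at 1.52 and 2.36 in vehicle and 4.40 and 4.50 in the combination. It changed by 1.37 ± 0.31 (SE) with TP-16, 1.68 ± 0.31 with anti-PD-1 and 2.51 ± 0.31 with the combination (adjusted p = 0.010). The Ly6c1 probes were taken in after the members' values were seen.

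**Figure D3:**
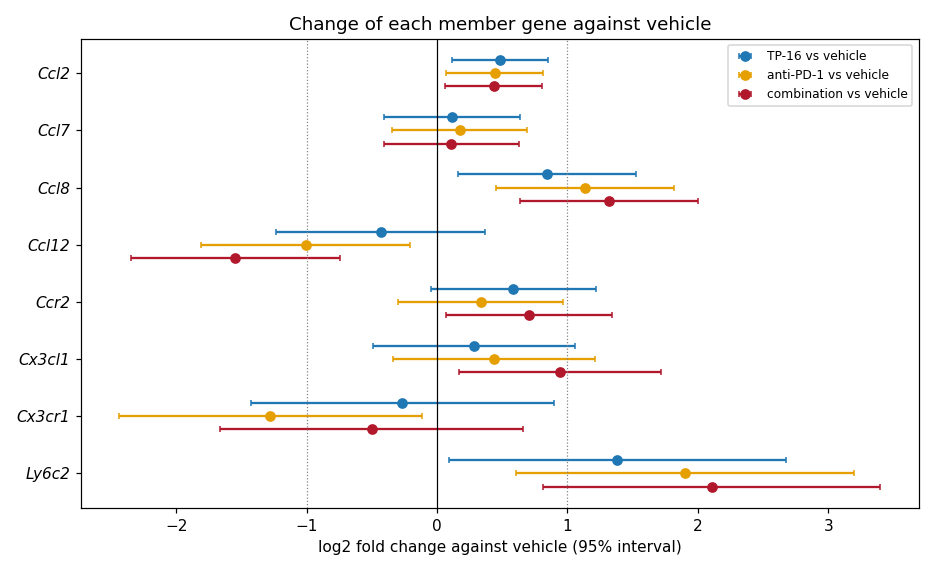
Log2 fold change of each member gene against vehicle (points) with its 95% interval from the limma fit (bars) in each of the 3 treated groups; dotted lines mark a fold of 2. In the combination the intervals of Ccl8, Ly6c2 and Ccl12 lie farthest from 0, at 0.64 to 2.00, 0.81 to 3.40 and -2.35 to -0.75, while those of Ccl7 and Cx3cr1 span 0. With arrays scaled to leukocyte genes Ccl8 is at -0.16.

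Beyond the comparisons with vehicle, 0 of 8 members were called in the remaining contrasts of the limma fit. These were the combination against TP-16 (0% of all probes called; an unadjusted p under 0.05 for 1 member and 22.3% of probes) and against anti-PD-1 (0.0157% called; 0 members and 26.2% of probes). For the average effect of TP-16 over both antibody states 2.69% of probes were called, and 2 members and 37.5% of probes had an unadjusted p under 0.05. For the average effect of anti-PD-1 over both TP-16 states 0.0188% were called, and 4 members and 29.0% of probes had one. The largest average effects of anti-PD-1 were 1.31 ± 0.37 (SE) for Ly6c2 and -1.06 ± 0.23 for Ccl12 (adjusted p = 0.10 and 0.080). The departure from additivity, that is the combination's change minus the sum of the single-agent changes, was called for 0 members and 0% of probes, with 0 members and 7.32% of probes at an unadjusted p under 0.05. It was -1.18 for Ly6c2 with an interval of -3.01 to 0.65, and -0.66 for Ccl8 with an interval of -1.62 to 0.30, which leaves room for departures well over a fold of 2.

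Among 26 other genes of monocyte recruitment and growth, 11 rose in the combination and 0 fell. Over all tested genes, 5.57% were called higher and 8.61% lower. The list's median log2 change was 0.79, against -0.24 over all genes. Its largest rises were Ccl5, a chemokine for T cells and monocytes (4.05 ± 0.38 SE), Itgb2, the shared chain of the leukocyte integrins (2.05 ± 0.28), and Ccl4, a chemokine of macrophages and T cells (2.03 ± 0.34), with limma adjusted p between 0.010 and 0.013. Ccl5 was at 1.78 and 2.50 in vehicle and 5.83 and 6.55 in the combination. With TP-16 alone 0 of the 26 passed after adjustment and 1 was higher at the unadjusted threshold, and with anti-PD-1 alone 0 and 4, where 1.55% and 1.89% of all genes were higher at that threshold.

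Among 12 cytokines and transcription factors known to act on Ccl2, 11 were tested, and 5 rose and 1 fell in the combination, with a median of 0.41. Over all genes 5.57% were called higher and 8.61% lower, with a median of -0.24. Ifng, the gene of interferon gamma, rose by 4.06 ± 0.96 (SE) and Tnf by 2.15 ± 0.49 (limma adjusted p = 0.028 and 0.025). Il6 fell by 1.16 on the log2 scale (adjusted p = 0.018). Ifng was at -3.58 and -0.49 in vehicle, 0.75 and 0.00 in TP-16, 1.09 and 0.70 in anti-PD-1, and 1.67 and 2.38 in the combination. As with Ly6c2 and Ccl8, vehicle replicate 1 was the lowest of all arrays. With either single agent 0 of the 11 passed after adjustment, and 2 with TP-16 and 3 with anti-PD-1 passed at the unadjusted threshold, all higher, where 1.55% and 1.89% of all genes did so.

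The genes whose levels followed Ccl2 most closely across the 8 arrays, among 5186 genes with an SD of at least 0.5, were Usp18, Rnase2a, Rragd, Ifit1 and Apod (Pearson r from 0.91 to 0.94). Those closest to Ccr2 were P2ry10, Rnase6, Atp2a1, BC147527 and Zcchc18 (r from 0.96 to 0.98). The same measure was then taken for the members that passed the test. Closest to Ccl8 were Rtp4, Herc6, Xaf1, Irf7 and Stat2, all known as interferon-induced genes (r from 0.98 to 0.99). Closest to Ly6c2 were Ly6c1, Ly6a, Ido1, Gbp3 and Gbp2 (r from 0.99 to 1.00), the first through the probe that shares 48 bases with that of Ly6c2, of which the last 3 are classical interferon gamma targets. Closest to Ccl12 were Pwwp3b, Tmem121, Chrnb1, Dusp9 and C030016D13Rik (r from 0.93 to 0.97). These coefficients describe 8 arrays in 4 groups that share slide and scaling, and part of each is the difference between the groups themselves.

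Markers of the cells that could carry these genes moved with the treatments, and their part in the members' changes was not tested. The counts of markers in the combination stand beside 5.57% of all tested genes called higher and 8.61% called lower. All 4 general leukocyte markers were well above background on every array, and their summed linear level, where 1 is the 75th percentile, was 28.9 to 47.2 in vehicle, 53.9 to 58.6 in TP-16, 45.4 to 52.3 in anti-PD-1 and 70.4 to 95.5 in the combination. Ptprc, which encodes CD45, rose by 1.88 ± 0.30 (SE) in the combination (limma adjusted p = 0.012). All 9 further classical monocyte markers were above background on every array, and their sum was 118 to 260 in vehicle, 193 to 271 in TP-16, 156 to 206 in anti-PD-1 and 194 to 260 in the combination. The groups overlapped in this sum, which the brightest gene, Ms4a4c, leads, at 5.05 and 7.34 within vehicle. The list's median log2 change was 0.71 with anti-PD-1 and 0.70 with the combination, against -0.10 and -0.24 over all genes. Of these 9 genes 1 rose in the combination, Fcgr1, a Fc receptor that interferon gamma induces (1.37 ± 0.40, adjusted p = 0.046), while Vcan (0.91, adjusted p = 0.024), Plac8 (0.70, 0.046) and, in the other direction, Cd14 (-0.51, 0.034) were under a fold of 2. Of the rest, F13a1 was at -0.27, Ms4a4c at 0.55 ± 0.79, and Chil3, Hp and Ifitm6 between 0.38 and 0.95, none passing. The 5 non-classical monocyte markers summed to 20.2 to 24.7 in vehicle and 27.5 to 28.5 in the combination, and Itgal (2.17) and Ace (1.21) rose. Treml4 (2.07), Spn (0.29) and Nr4a1 (-0.05) did not pass (limma adjusted p = 0.070, 0.20 and 0.80).

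The 12 macrophage markers, all above background on every array, summed to 680 to 794 in vehicle, 618 to 643 in TP-16, 692 to 771 in anti-PD-1 and 769 to 914 in the combination. Of them 5 rose in the combination, among them Adgre1, which encodes F4/80 (2.06 ± 0.36 SE, adjusted p = 0.014), while the brightest, Lyz2, was at -0.56 ± 0.12, under a fold of 2. The 10 neutrophil markers summed to 106.8 to 117 in vehicle and 56.5 to 70.6 in the combination, with S100a8 (-1.09) and S100a9 (-1.20) lower, and 1 defining marker, Ngp, was above background on no array. Of the 9 neutrophil genes tested, Ltf (1.99), Camp (1.30), Ly6g (1.09) and Retnlg (0.83) had positive differences that did not pass (limma adjusted p = 0.13, 0.11, 0.32 and 0.10). Ly6g was well above background on 2 arrays and Ltf on 3, so their differences rest largely on background-level signal. The list's median, with both of these genes counted, was -0.0019, against -0.24 over all genes. The 9 T cell and NK cell markers, other carriers of Ly6C, summed to 3.65 to 12.6 in vehicle, 17.8 to 21.4 in TP-16, 16.5 to 21.4 in anti-PD-1 and 26.4 to 47.5 in the combination, and 4 of them rose. The 6 dendritic cell markers summed to 1.26 to 2.05 in vehicle and 5.07 to 6.23 in the combination, and 4 rose. The 8 fibroblast markers summed to 243 to 283 in vehicle and 465 to 489 in the combination, with 3 higher, and the 6 of endothelium to 8.27 to 9.99 and 9.84 to 13.9, with 1 higher. B cell, colon epithelium, adipose, epidermis and skeletal muscle lists had 0 genes higher in the combination, and 2 B cell and 2 colon epithelium genes lower. The 5 epidermis markers summed to 3.53 to 5.05 in vehicle and 1.95 to 2.33 in the combination, but to 2.33 and 30.9 on TP-16 replicates 1 and 2 and 2.96 and 31.1 on anti-PD-1 replicates 1 and 2. Krt14, a keratin of basal skin cells, was at 3.80 on TP-16 replicate 2 and 4.22 on anti-PD-1 replicate 2, and at -4.06 and -3.45 on the other arrays of these groups. Of the 2 arrays of its group, TP-16 replicate 2 held the higher Ccl12 value (5.42 against 4.55) and anti-PD-1 replicate 2 the lower one (4.25 against 4.57). Ccl2 and Ccl7 were likewise the higher of their group on the first and the lower on the second. Cx3cr1 was the lower of its group on both (1.57 against 2.31, and 0.30 against 1.55), as were Ccl8, Ccr2, Cx3cl1 and Ly6c2. Without TP-16 replicate 2 the Ccl12 change with TP-16 was -0.86 (limma adjusted p = 0.23), and without anti-PD-1 replicate 2 the Cx3cr1 change with anti-PD-1 was -0.65 (0.64). The part of epidermal RNA in these values was not tested.

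**Figure D4:**
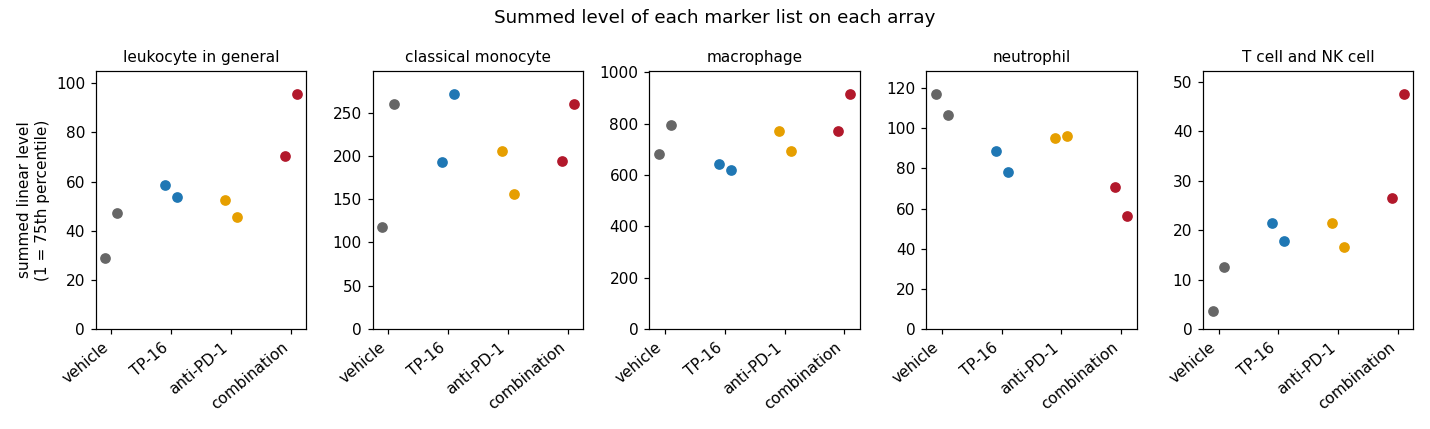
Summed linear level of 5 marker lists on each of the 8 arrays (points), where 1 is the array's 75th percentile and each axis starts at 0. The leukocyte sum is highest in the combination (70.4 to 95.5) and the neutrophil sum, carried by a few bright genes, lowest there (56.5 to 70.6). The median change of the neutrophil list was -0.0019, with the dim genes Ltf and Ly6g counted. The classical monocyte sums of the groups overlap.

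Relative to the mean log2 level of the 4 general leukocyte genes, a scaling added after the data were seen, the combination change of every member was lower than with the 75th percentile, each by the same amount. That mean was 2.35 and 2.97 in vehicle, 3.55 and 3.25 in TP-16, 3.40 and 3.11 in anti-PD-1, and 3.92 and 4.36 in the combination. On this scale Ly6c2 was at 0.63 and Ccl8 at -0.16 against vehicle, and Ccl2 was at -1.05 and Ccl7 at -1.37. Cx3cr1, by its brighter probe, was at -1.98 and Ccl12 at -3.03 (limma adjusted p = 0.00020 and 1.1e-05), where 85.3% of all tested probes were called. The other Cx3cr1 probe is not given on this scale. With the 75th percentile its combination change was -0.07, against -0.50 for the brighter probe. This scale moves the median of all tested probes to -1.68, so a value near that is a gene that changed like the typical probe.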

How the data were processed

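Total RNA of 8 CT26 tumor samples was hybridised, 1 colour (Cy3), to Agilent SurePrint G3 mouse arrays. The deposited scanner files, made by the authors with Agilent Feature Extraction 10.7.1.1, hold a background-subtracted intensity per spot (62976 spots), and the deposited series table holds the authors' log2 values, which match quantile-normalized signals and served as an alternative only. RNA isolation is given differently in the labels and in the methods.

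Control spots and outlier-flagged spots were left out, log2 intensities were averaged per probe (56567 probes), and the array's 75th percentile was subtracted. A probe was tested if well above background on both arrays of a group (31912 probes). limma 3.58.1 in R 4.3.3 fitted all 4 groups together (4 residual degrees of freedom), with Benjamini-Hochberg adjustment over all tested probes, and the procedure was tested on simulated data. A gene is given by its brightest tested probe. RefSeq (GRCm38.p6) updated names of 58.3% of probes, and probe positions are mm9. The number of arrays limits the precision. Members, gene lists and tests were chosen with earlier results of these data known. Named were all members, up to 3 largest risers and fallers of each of 2 pathway lists, the brightest and called genes of marker lists (14 lists; the report gives the most relevant), and the 5 genes most like Ccl2 and Ccr2; 1 gene that this rule names is not reported here. Alternatives were quantile normalization, normexp (offset 50), other probe filters, 1 probe per gene, the replicate block, the authors' values, compared groups only, trended moderation, a lower fold (1.5), the methods' t-test, and the fit without each array in turn.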

Additional observations from a re-analysis of the deposited data

How the results depend on the processing

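Directions changed in 19 of 456 values of single genes, and the causes were not tested. With arrays scaled to 4 leukocyte genes, the change against vehicle turned to -0.26 (TP-16), -0.15 (anti-PD-1) and -1.05 (combination) for Ccl2, to -0.63, -0.42 and -1.37 for Ccl7, to -0.16, -0.26 and -0.77 for Ccr2, to -0.46, -0.16 and -0.53 for Cx3cl1, and to -0.16 for Ccl8 in the combination. Leaving out 1 array at a time moved Ccl7 from -0.021 to 0.25 with TP-16, -0.036 to 0.39 with anti-PD-1 and -0.080 to 0.30 with the combination, and with TP-16 moved Ccl12 from -0.86 to 0.0014, Cx3cl1 from -0.045 to 0.61 and Cx3cr1 from -0.63 to 0.10.

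For TP-16 at the unadjusted threshold, 2 members (Ccl8 and Ly6c2, higher) passed after quantile normalization, with the authors' values and at a fold of 1.5, 2 others (Ccl12 and Cx3cr1, lower) with the leukocyte scaling, 0 with compared groups only or the methods' t-test, and 0 to 2 without 1 array, the 2 being without vehicle replicate 2 and every other omission giving 0. For anti-PD-1, 2 passed with compared groups only, 0 with the methods' t-test, and 2 to 4 without 1 array. For the combination, 1 passed with the methods' t-test and 5 at a fold of 1.5. The share of all probes past the unadjusted threshold is given for the main fit only, so these counts have no share to be read against. After adjustment the combination had 0 with compared groups only or the methods' t-test, settings in which 0% of all probes were called, and 0 to 3 without 1 array. With no filter on dim probes it had 2, Ly6c2 being lost (adjusted p = 0.053). Counts after adjustment with the leukocyte scaling were 4 for the combination against vehicle (Ccl2, Ccl7, Ccl12 and Cx3cr1, all lower, with Ccl8 and Ly6c2 no longer called; 85.3% of all probes called), 1 for TP-16 (32.5% of all probes called), 2 for anti-PD-1 (4.71%), 1 for the combination against TP-16 (3.0%) and against anti-PD-1 (47.8%), 1 for the average effect of TP-16 (41.9%) and 2 for that of anti-PD-1 (18.3%). The average effect of anti-PD-1 had 1 with normexp and 1 with trended moderation, and 0 to 1 without 1 array, as had TP-16, anti-PD-1 and the average effect of TP-16. Where a group was left with 1 array, that array was assumed to vary like the others. Replicate numbers are titles only: deviations of same-numbered arrays correlated between -0.19 and 0.29, and with the replicate block 3 members were called in the combination, the same number as without it. The slide could not serve as a block, since all arrays lay on 1. Fits of compared groups only and the methods' t-test give no departure from additivity, and compared groups only no average effects.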
